A study of Mus musculus with 13 samples.

Results

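TREM2 foamy macrophage genes are transcripts that mark the lipid-laden macrophages of atherosclerotic plaque which carry the receptor TREM2. 10 such genes, chosen by symbol and leaving out the genes of lipid uptake, were followed in whole aorta: Trem2, Tyrobp, Spp1, Gpnmb, Lgals3, Cd9, Itgax, Atp6v0d2, Mmp12 and Cd63. They are 10 of the 56953 genes counted, and all 10 were among the 18055 genes with enough counts to be tested. Every aorta came from a mouse lacking apolipoprotein E (ApoE-/-), a strain prone to atherosclerosis, kept on Western diet for 16 weeks from an age of 6 weeks. Diet alone (WD) gave 5 libraries, diet with auranofin at 3 mg/kg/day gave 3, diet with atorvastatin at 10 mg/kg/day gave 3, and diet with both drugs at those doses (combination) gave 2. Auranofin is a gold-containing antirheumatic drug and atorvastatin a cholesterol-lowering statin, and the series asked how auranofin bears on the course of atherosclerosis. A group without the diet and a group with intact Apoe were not analysed here, so plaque itself has no control in these values.

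TREM2 is a surface receptor that binds lipids and lipoproteins and signals through the adaptor DAP12, encoded by Tyrobp, which recruits the kinase SYK. In plaque, macrophages that have taken up lipid carry TREM2 together with secreted proteins (osteopontin, galectin 3, the elastase MMP12), lysosomal proteins and tetraspanins. MITF, TFEB and TFE3 (the MiT/TFE factors) drive lysosomal genes, PU.1 is the lineage factor of macrophages, and AP-1 is a general activation factor. The same transcripts can come from other cells: osteopontin from modulated smooth muscle and bone cells, CD9 and CD63 from nearly all cells, and CD11c (Itgax) from dendritic cells. In RNA of a whole aorta, fewer macrophages and less of a transcript per macrophage cannot be told apart.

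The libraries held 19703683 to 26079566 counts. WD 2, WD 5 and auranofin 2 stood apart, with scaling factors of 0.639, 0.801 and 0.629 against 1.00 to 1.23 in the other 10 libraries, and a share of mitochondrial counts of 9.36% to 38.8% across libraries was highest in auranofin 2. The defining macrophage genes were present in every library: none of 15 core macrophage genes was at 0, and their summed level ran from 576 to 7002 CPM (counts scaled to an equal library size) in WD. The labels name no batch and tie no library to a mouse, so p-values measure only the spread between these libraries. Apoe itself was at 6.21 to 26.9 CPM, which is no check of the genotype without a normal aorta.

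Promoters are shown so that the letters near the start sites can be set beside the levels of the genes. RefSeq promoters (build GRCm38.p6, another build than GRCm39 of the counts) were found for 8 of the 10 genes, in 10 windows of 300 bases. Tyrobp and Atp6v0d2 had no entry. Each line gives 250 bases before the start site and 20 after it, 5′ to 3′ on the strand of the gene, with matches on either strand in capitals. The letters searched were TCATGTG (M-box of MiT/TFE factors), CACGTG (E-box of the lysosomal CLEAR element), GAGGAAG (PU.1) and TGANTCA (AP-1); an AP-1 and an M-box match can share the letters TCA, but no matches shown overlap.
Trem2, chr17:48346151-48346420, + strand: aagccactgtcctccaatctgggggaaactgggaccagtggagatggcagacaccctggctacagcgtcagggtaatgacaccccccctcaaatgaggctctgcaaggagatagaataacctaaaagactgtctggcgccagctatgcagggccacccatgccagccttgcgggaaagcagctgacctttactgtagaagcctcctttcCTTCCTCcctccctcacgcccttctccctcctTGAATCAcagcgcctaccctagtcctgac
Spp1, chr5:104434861-104435130, + strand: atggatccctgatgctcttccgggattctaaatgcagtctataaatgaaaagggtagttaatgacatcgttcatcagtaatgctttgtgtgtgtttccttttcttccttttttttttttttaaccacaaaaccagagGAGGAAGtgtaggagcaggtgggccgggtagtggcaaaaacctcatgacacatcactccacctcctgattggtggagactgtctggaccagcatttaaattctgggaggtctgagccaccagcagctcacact
Gpnmb, chr6:49036268-49036537, + strand: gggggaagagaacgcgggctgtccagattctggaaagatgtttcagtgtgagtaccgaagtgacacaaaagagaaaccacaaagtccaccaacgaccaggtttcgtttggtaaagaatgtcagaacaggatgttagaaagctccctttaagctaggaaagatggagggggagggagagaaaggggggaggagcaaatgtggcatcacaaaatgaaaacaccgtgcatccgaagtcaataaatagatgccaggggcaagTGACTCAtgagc
Mmp12, second start, chr9:7347124-7347393, + strand: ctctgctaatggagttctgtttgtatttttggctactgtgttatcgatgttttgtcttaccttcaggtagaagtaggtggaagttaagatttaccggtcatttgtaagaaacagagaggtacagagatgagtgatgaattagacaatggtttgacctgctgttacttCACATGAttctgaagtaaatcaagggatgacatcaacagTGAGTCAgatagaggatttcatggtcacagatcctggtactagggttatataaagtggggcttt
Cd9, chr6:125494741-125495010, - strand: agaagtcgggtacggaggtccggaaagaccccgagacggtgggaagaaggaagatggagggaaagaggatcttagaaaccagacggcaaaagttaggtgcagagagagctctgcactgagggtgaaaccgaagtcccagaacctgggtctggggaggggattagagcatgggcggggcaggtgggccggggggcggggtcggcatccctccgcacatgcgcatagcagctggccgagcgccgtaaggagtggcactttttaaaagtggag
Trem2 held a PU.1 and an AP-1 match, Spp1 a PU.1 match and Gpnmb an AP-1 match. The second start of Mmp12 held an M-box and an AP-1 match, and Cd9 is shown as a member without any of the 4. Over the 8 genes found, 4 held PU.1 letters (Trem2, Spp1, Mmp12, Cd63) and 4 held AP-1 letters (Trem2, Gpnmb, Itgax, Mmp12). Counted by window, each was in 4 of the 10, and the same letters were in 13.628% and 7.808% of all 32851 promoter windows. The M-box was in 1 of the 10 windows and in 3.772% of all, and the E-box was in none of the 10 and in 7.15% of all. For Gpnmb, the bases just past those shown were not found as an unbroken stretch in its GENCODE transcripts, and the reason was not tested. These are matches of letters, not measured binding.

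Trem2 (ENSMUSG00000023992), the receptor, was measured at 78.2, 118, 5.68, 56.1 and 6.23 CPM in WD 1 to WD 5. It was at 18.6, 70.0 and 36.4 CPM in the auranofin libraries, at 27.9, 52.3 and 14.2 CPM in the atorvastatin libraries, and at 59.6 and 46.3 CPM in the combination libraries. The WD group thus held both the highest and the lowest value, and every treated library lay between them. Tyrobp (ENSMUSG00000030579), the adaptor, was at 119, 295, 12.05, 78.0 and 27.2 CPM in WD. It was at 31.3, 138 and 54.1 CPM with auranofin, at 30.7, 58.8 and 30.6 CPM with atorvastatin, and at 71.7 and 59.1 CPM with both drugs. WD 2, the highest library in CPM for both genes, and WD 3, the lowest for both, bracketed all other libraries. For Trem2 this order depends on the scaling, with a factor of 0.639 in WD 2. Its unscaled counts were 2187 in WD 1 and 1972 in WD 2, and 139 in WD 3 and 123 in WD 5. Tyrobp had its most counts in WD 2 (4917) and its fewest in WD 3 (295).

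Of the secreted proteins, Spp1 (ENSMUSG00000029304, osteopontin) was at 2568, 2785, 134, 2098 and 131 CPM in WD. It was at 627, 2092 and 1119 CPM with auranofin, at 923, 2271 and 447 CPM with atorvastatin, and at 2292 and 1850 CPM with both drugs. WD 3 and WD 5 were again far below the other WD libraries, and both lay below every treated library. Mmp12 (ENSMUSG00000049723), macrophage metalloelastase, was at 400, 276, 26.1, 446 and 11.5 CPM in WD. Its treated libraries ran from 66.7 CPM in atorvastatin 3 to 431 CPM in auranofin 2, all inside the WD range. Lgals3 (ENSMUSG00000050335), galectin 3, a lectin that binds galactosides, was at 436, 823, 39.9, 374 and 52.1 CPM in WD, and from 89.2 to 435 CPM in the treated libraries. The 2 combination libraries were close to each other for all of these: Spp1 differed between them 1.24-fold, Mmp12 1.14-fold and Lgals3 1.33-fold.

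Of the lysosomal and membrane proteins, Gpnmb (ENSMUSG00000029816), a glycoprotein of lysosomes and melanosomes, was at 1261, 1091, 98.7, 996 and 55.5 CPM in WD. It was at 427, 993 and 685 CPM with auranofin, at 562, 1159 and 192 CPM with atorvastatin, and at 1074 and 959 CPM with both drugs. Atp6v0d2 (ENSMUSG00000028238), a subunit of the proton pump that acidifies lysosomes, was at 94.7, 73.1, 7.19, 85.3 and 1.77 CPM in WD. Atorvastatin 2, at 125 CPM, was the single treated library that exceeded every WD library for this gene. The ubiquitous form of that subunit, Atp6v0d1, ran from 58.4 to 162 CPM, so the ratio of the macrophage form to the ubiquitous form ran from 0.0170 in WD 5 to 1.82 in atorvastatin 2. Itgax (ENSMUSG00000030789, CD11c, an integrin of macrophages and dendritic cells) was at 84.6, 30.9, 6.78, 53.0 and 2.38 CPM in WD and from 13.2 to 78.2 CPM in the treated libraries.

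The tetraspanins, membrane organisers of many cell types, behaved otherwise. Cd9 (ENSMUSG00000030342) was at 350, 523, 327, 345 and 201 CPM in WD, and from 228 CPM in auranofin 2 to 427 CPM in combination 1 in the treated libraries. Cd63 (ENSMUSG00000025351), a tetraspanin of late endosomes, was at 475, 790, 223, 327 and 446 CPM in WD. It was at 245, 375 and 297 CPM with auranofin, at 224, 271 and 248 CPM with atorvastatin, and at 431 and 279 CPM with both drugs. The 8 other genes had their 2 lowest values of all 13 libraries in WD 3 and WD 5. Cd9 had its 2 lowest WD values there too, but WD 3 at 327 CPM was close to WD 4 at 345, and Cd63 in WD 5 (446 CPM) lay above WD 4 (327 CPM).

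**Figure D1:**
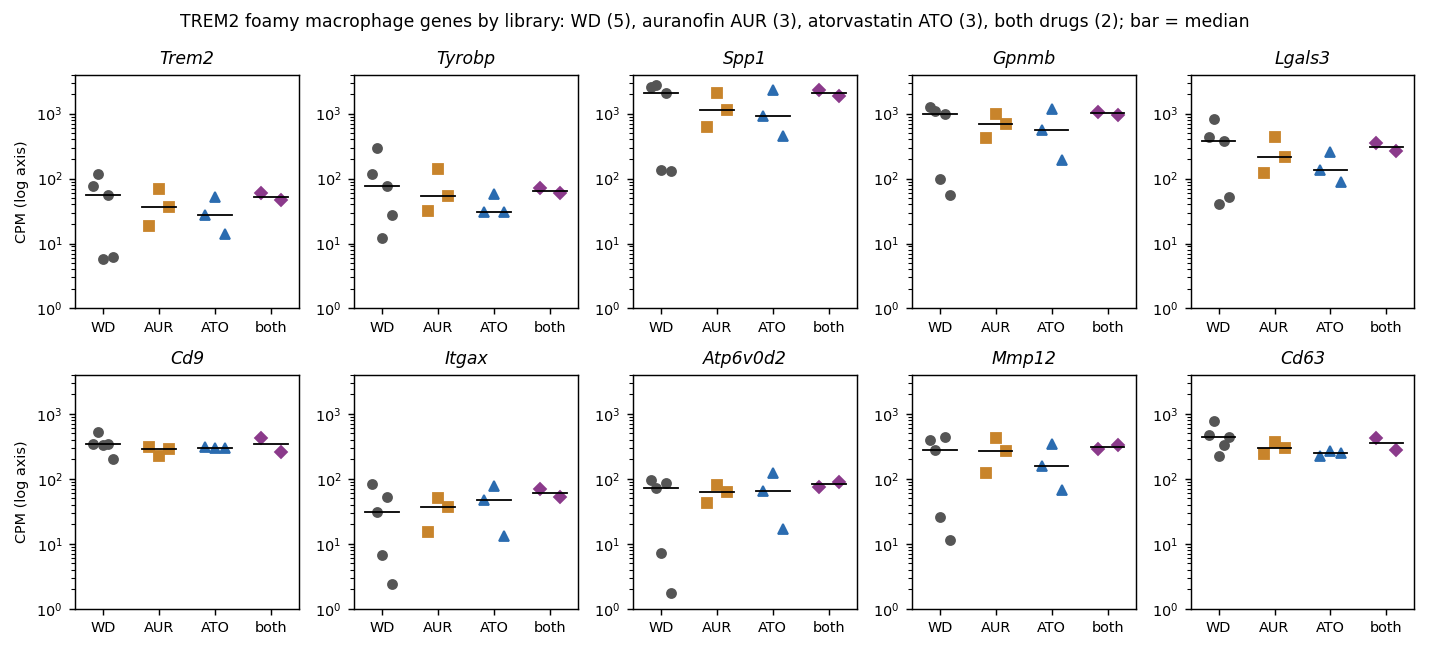
Level of each of the 10 genes in CPM (logarithmic axis, the same in every panel) in the 5 WD, 3 auranofin (AUR), 3 atorvastatin (ATO) and 2 combination (both) libraries, with a bar at the group median. In 8 panels the 2 lowest values are those of WD 3 and WD 5, though for Tyrobp WD 5 (27.2) lies just below atorvastatin 3 (30.6), and Cd9 and Cd63 vary least.

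Per kilobase of transcript, the median level over the 13 libraries was highest for Spp1, at 1228 CPM per kb. Cd63 (268), Gpnmb (259), Cd9 (249), Lgals3 (182) and Tyrobp (104 CPM per kb) came next. Mmp12 (76.6), Trem2 (42.5), Atp6v0d2 (28.8) and Itgax (11.8 CPM per kb) were lowest, so the receptor that gives the group its name is among its less abundant transcripts. The ranges over libraries of any 2 neighbours in this order overlapped. Counts per library ran from 35 for Atp6v0d2 to 71823 for Spp1. The libraries are not stranded, so reads of overlapping genes cannot be separated: exons of Gm42793 overlap Spp1 (0 to 52 counts per library), those of Gm26728 overlap Cd9 (0 to 16 counts), and those of Mmp1b, with no count, overlap Mmp12. The pseudogene Cd63-ps, which resembles Cd63, held 77 to 189 counts beside at least 5473 for Cd63.

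Untreated aortas differed from each other in these genes more than in most others. The highest WD library exceeded the lowest 20.8-fold for Trem2, 24.5-fold for Tyrobp, 21.3-fold for Spp1, 22.7-fold for Gpnmb and 20.6-fold for Lgals3. The ratio was 35.5 for Itgax, 38.9 for Mmp12 and 53.4 for Atp6v0d2, but 2.61 for Cd9 and 3.54 for Cd63. The median over 14575 genes with a mean of at least 1 CPM and no library at 0 was 2.14, and each of the 8 widely spread genes exceeded at least 98.7% of those genes. The fitted biological coefficient of variation within groups, the relative spread after counting noise is removed, was 0.713 to 0.829 for these 8, 0.287 for Cd9 and 0.342 for Cd63, against a median of 0.316 over all genes tested.

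For these 8 genes the spread ran with the amount of macrophage RNA in a library. The summed CPM of the 15 core macrophage genes (Cd68, Adgre1, Csf1r, Lyz2, the C1q chains and others; none is among the 10) was 5009, 7002, 576, 3577 and 899 in WD. It was 1511, 5130 and 2601 with auranofin, 1751, 3576 and 1179 with atorvastatin, and 3547 and 3377 with both drugs. On log2 scales, Trem2 differed by 1.23 per doubling of this sum, Lgals3 by 1.18, Tyrobp by 1.05, Gpnmb by 1.25, Itgax by 1.11, Atp6v0d2 by 1.30, Mmp12 by 1.36 and Spp1 by 1.38, whereas the slope was 0.13 for Cd9 and 0.30 for Cd63. As a description over 13 libraries that share their scaling with the sum, Pearson's r was 0.99 for Trem2 (Spearman's rho 0.98), 0.40 for Cd9 (rho 0.36) and 0.60 for Cd63 (rho 0.65). Without WD 3 and WD 5, the libraries farthest from the median of the sum, r was 0.99, 0.35 and 0.82. For Itgax it was 0.81 with all libraries and 0.65 without those 2, so its relation leans on them more.

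**Figure D2:**
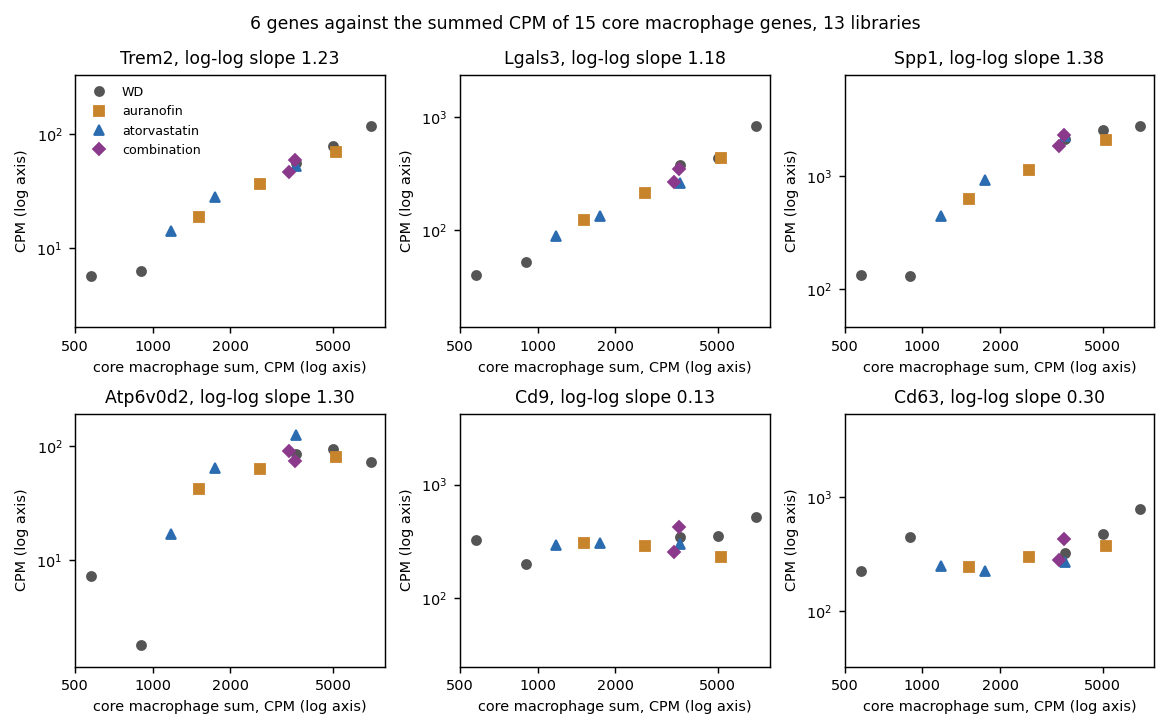
Level of 6 of the genes (vertical axis, CPM) against the summed CPM of 15 core macrophage genes (horizontal axis) in 13 libraries, both axes logarithmic, each vertical axis spanning the same number of folds. Trem2, Lgals3 and Spp1 climb with the sum in treated and untreated libraries alike, while Cd9 and Cd63 have lower slopes, 0.13 and 0.30.

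Auranofin alone was compared with WD to see whether the foamy macrophage transcripts differed under the drug. None of the 10 passed an adjusted p of 0.05 (edgeR quasi-likelihood test, Benjamini-Hochberg adjusted over 18055 genes); 0% of all genes did, and DESeq2 and limma also called 0 of the 10. At an unadjusted p under 0.05 the count was 0 of 10, against 6.5% of all genes. Fitted values were lower for 7 and higher for 3 (53.6% of all genes were fitted lower), with a median log2 fold change of -0.31 against -0.04 over all genes. Trem2 was at 41.7 ± 26.1 CPM (SD, n = 3) against 52.9 ± 48.3 (SD, n = 5) in WD, a log2 fold change of -0.35 (SE 0.84, adjusted p = 0.908). Its 95% interval ran from 0.222 to 2.79 times the WD level, an interval that holds lower and higher levels alike. Cd9 and Cd63, the less variable genes, had tighter estimates of -0.34 (SE 0.29, adjusted p = 0.708) and -0.57 (SE 0.35, adjusted p = 0.671). No member had auranofin values that lay wholly outside the WD range, while 2.78% of all genes did. Of 12 adipocyte markers 11 were fitted higher with auranofin and 0 passed the adjusted test, at overlapping summed levels of 1111 to 3413 CPM against 376 to 1490 in WD. All 8 T cell, all 7 B cell and all 7 endothelial markers were fitted higher too, and 0 passed. T cell sums were 20.3, 37.8 and 9.67 CPM in auranofin 1 to 3, against 3.90 to 16.2 in WD. B cell sums were 24.3, 697 and 58.4 CPM against 20.7 to 67.4, and endothelial sums 930, 2381 and 728 CPM against 573 to 997. Auranofin 2 was thus highest for each, and for B cell and endothelial markers auranofin 1 and auranofin 3 lay inside the WD range. The part of these cells in the values of the 10 genes was not tested.

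Atorvastatin alone was compared with WD in the same way. Again 0 of the 10 genes passed the adjusted test by edgeR, DESeq2 or limma, as did 0% of all genes by edgeR. At an unadjusted p under 0.05 by edgeR there was 1 of 10, Cd63, against 14.7% of all genes. Cd63 was at 248 ± 23.4 CPM (SD, n = 3) against 452 ± 214 (SD, n = 5), a log2 fold change of -0.87 (SE 0.36, adjusted p = 0.340, edgeR). The 3 atorvastatin values lay in the lower part of the WD range and above its lowest value, that of WD 3. Tyrobp had the largest fitted difference, -1.41 (SE 0.83, adjusted p = 0.378), followed by Lgals3 at -1.10 (SE 0.84, adjusted p = 0.464), and Trem2 was at -0.75 (SE 0.86, adjusted p = 0.626). Itgax (0.38, SE 0.85) and Atp6v0d2 (0.39, SE 0.91) had positive estimates. In all 8 were fitted lower and 2 higher, against 50.8% of all genes fitted lower. The ranges of the groups overlapped for all 10 genes, and 5.7% of all genes did not overlap.

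With both drugs, 0 of the 10 genes passed the adjusted test by edgeR, DESeq2 or limma, and 0% of all genes passed by edgeR. At an unadjusted p under 0.05 by edgeR the count was 0 of 10, against 1.47% of all genes. Trem2 was at 52.9 ± 9.46 CPM (SD, n = 2), level with the WD mean, at a log2 fold change of 0.00 (SE 0.96) and an interval of 0.239 to 4.20 times WD. 6 genes were fitted higher, Itgax the most at 0.77 (SE 0.96), and 4 lower, Tyrobp the most at -0.70 (SE 0.93), where 51% of all genes were fitted lower. All 20 values of the 10 genes in the 2 libraries lay inside the WD range, and 3.29% of all genes had ranges that did not overlap.

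**Figure D3:**
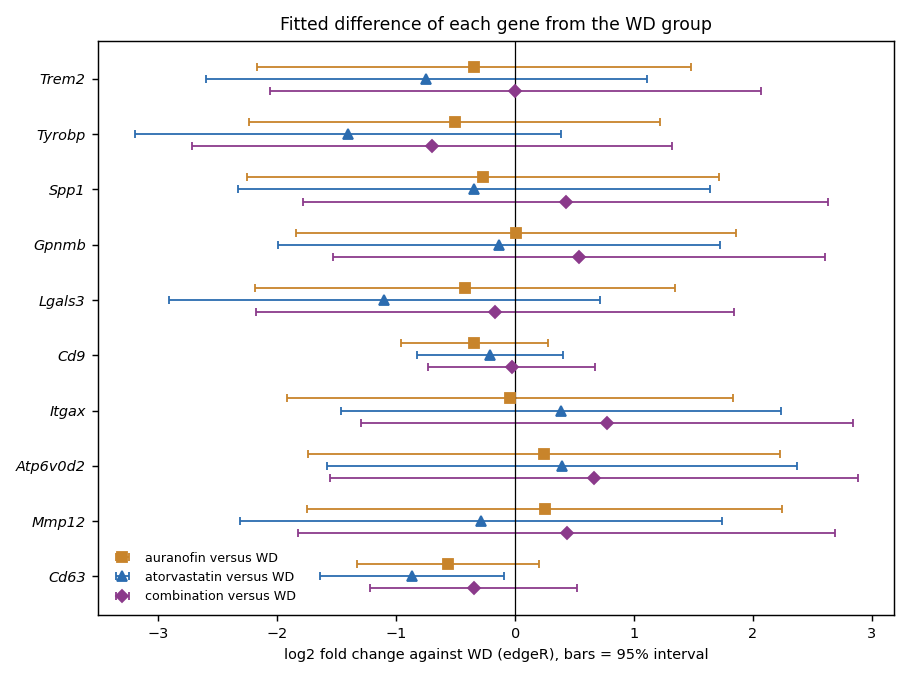
Fitted log2 fold change of each gene against WD (edgeR, horizontal axis; the line at 0 is no difference) for auranofin, atorvastatin and the combination, with 95% intervals as bars. All intervals hold 0 except that of Cd63 with atorvastatin, and those of Cd9 and Cd63 are the narrowest.

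The edgeR fold compares group means of counts, in which WD 1, WD 2 and WD 4 weigh most. On log2(CPM + 0.5), which weighs each library alike, the mean of Trem2 with auranofin differed from WD by 0.32 (exact permutation test, two-sided, p = 0.804, smallest possible 0.0179). With atorvastatin the difference was -0.07 (exact permutation p = 0.946, same smallest p) and with both drugs 0.85 (exact permutation p = 0.810, smallest possible 0.0476). The sign for auranofin thus depends on the scale, and it also turned when single libraries were left out: the log difference lay between -0.24 (without WD 3) and 0.83 (without WD 2).

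Auranofin was also set directly against atorvastatin. 0 of 10 genes passed the adjusted edgeR test and 0 had an unadjusted p under 0.05, against 0% and 4.4% of all genes; 13.5% of all genes, and none of the 10, had ranges that did not overlap. The largest estimate was that of Tyrobp, 0.90 on the log2 scale, auranofin over atorvastatin (SE 0.89, adjusted p = 0.828). With the core macrophage score (the mean log2 CPM of the 15 genes) as a covariate, the split went from 7 positive and 3 negative estimates to 4 and 6. Over all libraries, the additive effect of auranofin on Trem2 was 0.10 (SE 0.66, adjusted p = 0.998) and that of atorvastatin -0.30 (SE 0.66, adjusted p = 0.843). In these additive fits 0 genes passed for either drug and 0 had an unadjusted p under 0.05, against 0% and 2.69% of all genes for auranofin and 0% and 7.08% for atorvastatin. The interaction, which asks whether the drugs together differ from the sum of their separate effects, was positive for 10 of 10 genes, from 0.03 for Atp6v0d2 to 1.35 for Lgals3, where 47.7% of all genes had a negative one. It passed for 0 of 10 (0% of all genes, edgeR), with 0 of 10 and 3.1% at an unadjusted p under 0.05, and its smallest adjusted p was 0.791, for Cd63 and Cd9. The 10 estimates share the same 13 libraries, and 14 of 15 core macrophage genes were positive too. With the core macrophage covariate 4 of the 10 interactions were positive and 6 negative (50.2% of all genes negative), with a median of -0.19 in place of 0.86; that of Trem2 was -0.11 in place of 1.10.

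Because macrophage RNA varied so widely, the genes were also expressed per 1000 CPM of core macrophage transcripts. Trem2 then ran from 6.93 in WD 5 to 16.9 in WD 2, a 2.44-fold range in place of 20.8-fold. It was at 12.3 to 13.99 with auranofin, 12.03 to 15.9 with atorvastatin and 13.7 to 16.8 with both drugs, all inside the WD range. Lgals3 was the steadiest, from 58.0 to 117, a 2.03-fold range. The range was 2.56-fold for Tyrobp, 4.45-fold for Spp1 and 5.25-fold for Gpnmb. It was still 9.78-fold for Mmp12, 10.3-fold for Itgax and 18.6-fold for Atp6v0d2. For Cd9 and Cd63 the range widened, to 12.8-fold in place of 2.61-fold and 6.79-fold in place of 3.54-fold. Spp1 was at 145 to 586 in WD, at 408 to 430 with auranofin, at 380 to 635 with atorvastatin and at 548 to 646 with both drugs, with WD 5 and WD 3 at the bottom. Atp6v0d2 was at 1.97 to 23.8 in WD, 15.7 to 27.7 with auranofin, 14.4 to 36.7 with atorvastatin and 21.2 to 26.9 with both drugs. Per unit of core macrophage RNA, WD 3 and WD 5 thus had the least Trem2 and Spp1. This did not hold for every gene: Tyrobp in WD 5 (30.2) was the second highest of the 13 libraries, Gpnmb was higher in WD 3 (171) than in WD 2 (156), and the highest values of Cd9 (567, WD 3) and Cd63 (496, WD 5) were in this pair.

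**Figure D4:**
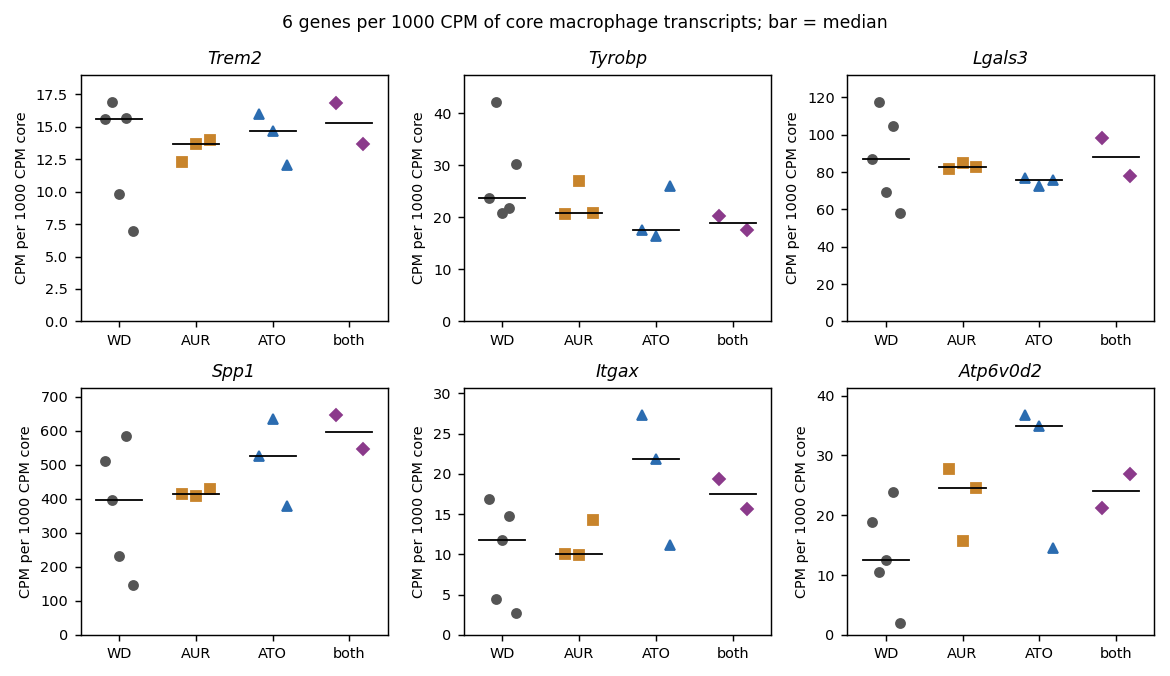
Level of 6 of the genes per 1000 CPM of core macrophage transcripts (linear axes from 0) in each library, by group, with a bar at the group median. Trem2 and Lgals3 stay within 2.44-fold and 2.03-fold across libraries, while Itgax and Atp6v0d2 are highest in 2 of the 3 atorvastatin libraries.

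With the core macrophage score as a covariate in edgeR, 0 of 10 genes passed the adjusted test in each comparison with WD (0% of all genes). For atorvastatin 4 of 10 had an unadjusted p under 0.05, against 14% of all genes. Atp6v0d2 was then 1.28 higher on the log2 scale (SE 0.53), Itgax 1.12 higher (SE 0.49), Spp1 0.69 higher (SE 0.31) and Cd63 at -0.73 (SE 0.29), each with an adjusted p of 0.340. Trem2 was at 0.29 (SE 0.21) and Lgals3 at -0.11 (SE 0.22), with standard errors that had been 0.86 and 0.84 without the covariate. The count of 4 rested on single libraries: it was 0 without atorvastatin 1 or atorvastatin 2, 1 without WD 2 or WD 5, 2 without auranofin 3, and 6 without WD 4. For auranofin and for the combination the count with the covariate was 0, against 7.36% and 2.36% of all genes. In the additive fit with the covariate, the atorvastatin estimate of Trem2 was 0.24 (SE 0.16, adjusted p = 0.491) in place of -0.30. There 0 of 10 passed (0% of all genes), and 2 of 10 had an unadjusted p under 0.05, against 8.5% of all genes: Spp1 at 0.59 (SE 0.23) and Itgax at 0.94 (SE 0.37), each with an adjusted p of 0.474 by edgeR.

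The genes did not keep fixed ratios to one another. The ratio of Tyrobp to Trem2 (CPM, not per length) was 1.52, 2.49, 2.12, 1.39 and 4.36 in WD 1 to WD 5, 1.49 to 1.98 with auranofin, 1.10 to 2.16 with atorvastatin, and 1.20 and 1.28 with both drugs. The ratio of Itgax to Trem2 was 1.08, 0.261, 1.19, 0.944 and 0.382 in WD, 0.730 to 1.02 with auranofin, 0.932 to 1.71 with atorvastatin, and 1.152 and 1.141 with both drugs. WD 2 and WD 5, where Tyrobp was high and Itgax low beside Trem2, also had high levels of short transcripts as a whole beside long ones. Tyrobp, at 0.564 kb, is the shortest of the 10 transcripts and Itgax, at 4.05 kb, the longest. The score of short minus long genes (mean log2 CPM of genes of at most 2.02 kb minus that of genes of at least 4.70 kb, centred over libraries) was 1.38 in WD 2 and 0.70 in WD 5, and -0.85, -0.53 and -0.11 in the atorvastatin libraries. The Tyrobp ratio was also high at low scores, 2.12 in WD 3 (score -0.30) and 2.16 in atorvastatin 3 (-0.11). With this score as a covariate, chosen after seeing the data, the atorvastatin estimate for Cd63 was -0.12 (adjusted p = 1.00, edgeR) in place of -0.87, and that for Tyrobp was 0.11 in place of -1.41. What sets the score in these libraries was not tested.

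**Figure D5:**
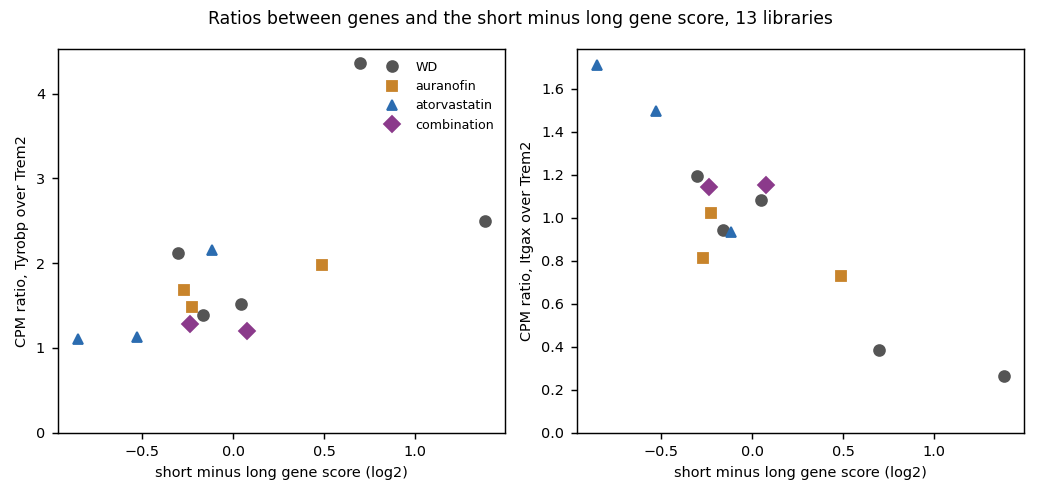
Ratio of Tyrobp to Trem2 (left) and of Itgax to Trem2 (right), in CPM, against the score of short minus long genes (log2) in 13 libraries. WD 2 and WD 5, at scores of 1.38 and 0.70, have the lowest Itgax ratios, 0.261 and 0.382, and WD 5 has the highest Tyrobp ratio, 4.36.

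The signalling partners of TREM2 were read from a list of 15 genes (adaptors, kinases, the shedding proteases ADAM10 and ADAM17, and MS4A proteins). No gene of this list, or of any list below, passed the adjusted edgeR test in any comparison. With auranofin 12 were fitted higher and 3 lower, with Adam10, which sheds TREM2 from the cell, at 0.48 (SE 0.24, adjusted p = 0.671). With atorvastatin 5 were higher and 10 lower, and with both drugs 11 higher and 4 lower. Syk was at 5.68 to 44.6 CPM in WD and 17.5 to 42.0 CPM in the treated libraries. Hcst (DAP10), the alternative adaptor and neighbour of Tyrobp, had no more than 2.11 CPM in any library.

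Of 16 MiT/TFE factors and proton pump subunits, 7 were fitted higher and 9 lower with auranofin, 4 higher and 12 lower with atorvastatin, and 9 higher and 7 lower with both drugs. The 16 genes summed to 1521, 2048, 1086, 1372 and 1366 CPM in WD 1 to WD 5, and to 1109 to 1317 CPM with atorvastatin. With atorvastatin 4 of the 16 were lower at an unadjusted p under 0.05 by edgeR, against 10.5% of all genes. Among these 4 were Atp6v0e at -1.10 (SE 0.42) and Atp6v0d1 at -0.60 (SE 0.26), both with an adjusted p of 0.340 by edgeR. Atp6v0d2 thus had the opposite sign (0.39) from its ubiquitous counterpart in this comparison, though neither passed. Tfeb was at -0.59 with auranofin (SE 0.28, adjusted p = 0.671). Of 8 other tetraspanins, 6 were lower with auranofin, 7 with atorvastatin and 6 with both drugs. Tspan4 was at -1.26 (SE 0.49, adjusted p = 0.340) and Cd151 at -0.53 (SE 0.24, adjusted p = 0.340) with atorvastatin. These 8 tetraspanins summed to 919, 1346, 761, 799 and 1076 CPM in WD 1 to WD 5, and to 658 to 765 CPM with atorvastatin. For both lists the part of the score of short minus long genes was not tested.

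Receptors and partners of osteopontin and galectin 3 (10 integrins and others) were fitted higher for 4 genes with auranofin, 8 with atorvastatin and 9 with both drugs. Cd44, an osteopontin receptor, was at 76.8 ± 30.4 CPM (SD, n = 5) in WD, 76.0 ± 14.5 (n = 3) with auranofin and 83.5 ± 23.4 (n = 3) with atorvastatin. Itgb2, the beta chain that pairs with CD11c, was at 6.28 to 82.7 CPM in WD, with values of treated libraries from 25.1 to 76.8 CPM. For the elastic fibre genes and TIMP inhibitors that face MMP12, 6 of 7 were lower with auranofin and 2 of 7 with atorvastatin. Timp1 was at 72.4 ± 26.8 CPM (SD, n = 3) with auranofin against 178 ± 171 (n = 5) in WD, a log2 fold change of -1.30 (SE 0.73, adjusted p = 0.671), and Timp3 was at 1.53 with atorvastatin (SE 0.65, adjusted p = 0.340).

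A list of 18 further genes of the TREM2-dependent programme known from microglia, the macrophages of brain, includes Apoe, which these mice lack. The list was fitted higher for 10 genes with auranofin, 4 with atorvastatin and 11 with both drugs. The smallest p in the first was that of Lpl, lipoprotein lipase, at 1.04 (SE 0.45, adjusted p = 0.671, edgeR), with Fabp4 at 1.09 and Plin2 at 0.75. Lpl, Fabp4 and Plin2 are also made by adipocytes, of whose 12 markers 11 were fitted higher in this group and none passed; their part was not tested. The core macrophage list was fitted lower for 11 of 15 genes with auranofin, 13 of 15 with atorvastatin and 9 of 15 with both drugs, beside 7, 8 and 4 of the 10 foamy genes.

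Markers of other cells that can hold some of these transcripts were read beside them. All 10 resident adventitial macrophage genes were fitted lower with atorvastatin, against 50.8% of all genes. Pf4 was at -1.62 (SE 0.52, adjusted p = 0.340, edgeR) and Timd4 at -0.99 (SE 0.38, adjusted p = 0.340, edgeR). Pf4 is also on the list of platelet markers, of which 5 of 6 tested were fitted lower with atorvastatin. The summed level of the 10 resident macrophage genes was 795, 1251, 661, 824 and 975 CPM in WD 1 to WD 5. With atorvastatin it was 607, 718 and 681 CPM, so the ranges overlapped. WD 2 and WD 5, the highest here, also had the highest scores of short minus long genes, 1.38 and 0.70. The part of that score in these estimates was not tested. The range of the sum was far narrower than that of the foamy genes. Lyve1 was at 15.8 to 29.1 CPM in WD. The 9 dendritic cell markers summed to 39.3 to 65.3 CPM in WD and 30.5 to 98.3 CPM in the treated libraries. Osteoclasts, the bone-resorbing cells, also make Atp6v0d2 and osteopontin. Of 8 osteoclast genes, only Dcstamp and Calcr were at 0 in any library. The 8 summed to 170, 231, 76.1, 150 and 83.6 CPM in WD 1 to WD 5 and to 93.4 to 171 CPM in the treated libraries. The part of osteoclasts in the values of the 10 genes was not tested. The cartilage-like and modulated smooth muscle genes mark another source of osteopontin. Of these 12 genes, 2 were fitted higher with auranofin, 10 with atorvastatin and 8 with both drugs. Sox9 was at 2.52 to 13.6 CPM in WD. The 12 genes summed to 5096, 3973, 1927, 3822 and 2048 CPM in WD 1 to WD 5, lowest in WD 3 and WD 5 as for Spp1. Their part in the values of Spp1 was not tested.

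The tested genes whose pattern over the 13 libraries was most like that of Trem2 (Pearson's r of log2(CPM + 0.5)) were Ms4a7 at 0.997, Cd68 at 0.994, Otulinl at 0.992, Hvcn1 at 0.990 and Ctss at 0.989. Without WD 3 and WD 5 their r was 0.997, 0.989, 0.989, 0.973 and 0.981. Among the 10 genes, Lgals3 was most like Trem2, at 0.990, followed by Spp1 at 0.983, and Cd9 was least like it, at 0.492.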

How the data were processed

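RNA of whole mouse aorta was measured by RNA-seq in 13 libraries. The authors deposited raw read counts per Ensembl gene, whole numbers that were not normalised. Per the submitters' processing notes, STAR 2.6.1d aligned the reads to GRCm39, and featureCounts (Subread 1.6.3) counted them; per the labels' protocols, poly-A libraries were not stranded. No 2 libraries had the same counts, and every column of the table was matched to a sample by its name.

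Genes were filtered with filterByExpr and scaled with TMM factors in edgeR 4.0.16 (R 4.3.3). The quasi-likelihood test was fitted with 1 mean per group over all 13 libraries, or with an additive term per drug. Tests were two-sided, with Benjamini-Hochberg adjusted p-values over 18055 genes and a threshold of 0.05. CPM values are at the TMM-scaled size. SE is the size of the log2 fold change divided by the square root of F, and 95% intervals use it. The code was tested on simulated data. DESeq2 1.42.0, limma 3.58.1, other scalings and filters, covariates, a replicate block and leaving out each library were the alternatives.

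The 10 genes, the 19 other gene lists and the tests were chosen with earlier results of these data known. Named genes are the 10, fixed partner genes, up to 3 genes of the smallest p per list and comparison, and the 5 genes most like Trem2; genes named outside these were chosen after their values were seen. Transcript lengths and overlaps come from GENCODE M21 (GRCm38), matched by Ensembl identifier. The score of short minus long genes used 12938 of 14645 genes (88.3% with a length). Library depth bears most on genes with few counts, and intervals cover the spread between libraries. Figures were drawn with matplotlib 3.10.9.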

Additional observations from a re-analysis of the deposited data

How the results depend on the processing

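In all 7 comparisons the count of genes passing the adjusted test was 0 of 10 under every alternative run, including an adjusted p under 0.1; the smallest adjusted p was 0.187, for atorvastatin against WD without WD 3, and 0.182 with the core macrophage covariate and without WD 4. With the replicate block the count was 0 as well. Whether the replicate numbers pair the libraries was not settled. Of 15 pairs with the same number 7 had a correlation over 0.1 (range -0.34 to 0.49), beside a median of -0.03 over other pairs. By this measure 3 of 11 libraries were closest to their own number. The block turned 3 estimates: Spp1 (0.074) and Itgax (0.39) with auranofin, and Trem2 (-0.33) with both drugs.

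Signs of estimates that did not pass turned in several fits, and the cause was not tested. With the core macrophage score as covariate, log2 fold changes were 0.079 for Trem2, 0.28 for Spp1 and 0.20 for Itgax with auranofin; 0.29 for Trem2, 0.69 for Spp1, 0.70 for Gpnmb and 0.67 for Mmp12 with atorvastatin; and 0.052 for Lgals3 with both drugs. With an adipocyte score they were 0.62 for Trem2, 0.29 for Tyrobp, 0.59 for Spp1, 0.43 for Lgals3 and 1.01 for Itgax with auranofin, 0.15 for Spp1, 0.36 for Gpnmb and 0.0044 for Mmp12 with atorvastatin, and 0.33 for Lgals3 and 0.10 for Cd9 with both drugs. With the score of short minus long genes, added after seeing the data, they were 0.053 for Tyrobp with auranofin, 0.13 for Trem2, 0.11 for Tyrobp, 0.17 for Spp1 and 0.083 for Gpnmb with atorvastatin, and 0.18 for Tyrobp, 0.36 for Lgals3, 0.044 for Cd9 and 0.048 for Cd63 with both drugs.

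Limma with quality weights gave -0.25 for Gpnmb and -0.19 for Mmp12 with auranofin, 0.024 for Spp1 and 0.038 for Gpnmb with atorvastatin, and 0.21 for Lgals3 with both drugs. Gpnmb with auranofin was -0.0054 at a library size without mitochondrial genes and -0.031 without a filter. Trem2 with both drugs was -0.014 with median-of-ratios size factors, -0.0066 without mitochondrial genes in the library size, -0.0062 with a filter of at least 1 CPM in at least 2 libraries and -0.015 with DESeq2.

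Leaving out 1 library moved the log2 fold change with auranofin between -0.94 and 0.18 for Trem2, -1.31 and 0.34 for Tyrobp, -0.82 and 0.057 for Spp1, -0.33 and 0.31 for Gpnmb, -1.03 and 0.19 for Lgals3, -0.44 and 0.56 for Itgax, -0.070 and 0.56 for Atp6v0d2, and -0.23 and 0.61 for Mmp12. With atorvastatin the ranges were -1.16 to 0.050 for Spp1, -0.88 to 0.30 for Gpnmb, -0.21 to 0.99 for Itgax, -0.35 to 0.85 for Atp6v0d2 and -1.05 to 0.12 for Mmp12. With both drugs they were -0.30 to 0.53 for Trem2, -0.998 to 0.15 for Tyrobp, -0.47 to 0.44 for Lgals3 and -0.45 to 0.29 for Cd9. The difference of mean log2(CPM + 0.5) of Trem2 lay between -0.24 and 0.83 for auranofin against WD, and between -0.63 and 0.43 for atorvastatin against WD. At this depth the 10 genes held at least 35 counts in every library; what limits the calls was not tested.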
